A study of Mus musculus with 4 samples.

Results

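The cytosolic ribosomal protein genes encode the protein subunits of the 40S and 60S subunits of the ribosome that translates nuclear mRNAs. They were taken by symbol, as Rpl or Rps followed by a number and at most 1 of the letters a, x, l or y and a further number, together with *Rplp0*, *Rplp1*, *Rplp2* and *Rpsa*. The *Rps6k* kinase genes and rows named as pseudogenes were left out, and members were kept where any library listed them at an FPKM of 1 or more. FPKM is the number of fragments divided by the length of the transcript and by the size of the library. Of 84 matching symbols among the 23946 listed, 82 passed that minimum, and 13998 genes of all kinds passed it. The 82 members held 33 genes of the 40S subunit and 49 of the 60S subunit. The 2 matching symbols outside the minimum were *Rpl10l*, listed at 0 in every library, and *Rpl3l*, at 0.155 FPKM in PF, 0.0613 in GP and 0 in SAG and COR. The member nearest the minimum was *Rpl26*, which was at 6.33, 4.18, 22.2 and 13.9 FPKM in PF, SAG, COR and GP. No member was listed at 0 in any library.

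RNA was measured by bulk RNA-seq in skeletal stem/progenitor cells that carry CD51 and CD200 on their surface (CD51+;CD200+ cells). The cells came from wild-type CD-1 mice at postnatal day 3, from the posterior frontal suture (PF), which later fuses, from the sagittal (SAG) and coronal (COR) sutures, which do not fuse, and from the growth plate of the tibia (GP), used as a reference. They were sorted by FACS from pooled mice as positive for both antigens and negative for CD105, 6C3, both Thy1 alleles (Thy1.1 and Thy1.2), Tie2, Ter119 and CD45, so each library holds a sorted fraction of a tissue that also contains bone fronts, dura mater and periosteum in the sutures. There was 1 library per tissue, made by amplification of cDNA from little RNA. No replicate error exists for any value given here, and no p-value was computed.

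Each ribosome holds 1 copy of nearly every ribosomal protein, and growing cells coordinate the production of these proteins. Their mRNAs usually begin with a run of pyrimidines, the 5′ terminal oligopyrimidine (TOP) tract, through which the mTORC1 pathway controls their translation together. In bone and cartilage, loss of single members such as *Rpl38* or *Rpl24* alters the skeleton of the mouse, and loss of *Rps19* or *Rpl5* is known from an anemia with skeletal malformations.

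The TOP tract is shown first because it is a feature described for these genes that the choice by symbol did not use. Of the 82 members, 61 had an entry in the RefSeq promoter table of build GRCm38.p6, which is a later build than the mm9 of the expression files. A run of at least 7 C or T letters that began with C within 10 bases of an annotated start was found in 30 of the 61, or 49.2%, compared with 15.2% of the 10379 genes tested that had an entry. The nuclear genes of mitochondrial ribosomal proteins, whose products work in the other ribosome of the cell, held such a run in 7 of 68, or 10.3%. The search depends on the annotated starts, and the starts used in these cells were not measured. A member without a run here is therefore not shown to lack a TOP tract. The windows below run from 15 bases before the start to 15 bases from it on, and capitals mark the run. *Rpl27a*, *Rpl35*, *Rpl15* and *Rpl7a* had the longest runs, *Rpl38* and *Rps6* are printed for their roles described further on, and *Rpl26* is printed as the member with the lowest level, without a run.
Rpl27a (chr7:109519180-109519209, plus strand): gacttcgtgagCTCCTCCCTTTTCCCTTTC
Rpl35 (chr2:39005117-39005146, minus strand): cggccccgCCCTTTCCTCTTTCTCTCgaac
Rpl15 (chr14:18270972-18271001, minus strand): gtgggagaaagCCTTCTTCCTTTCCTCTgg
Rpl7a (chr2:26910792-26910821, plus strand): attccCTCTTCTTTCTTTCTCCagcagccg
Rpl38 (chr11:114668565-114668594, plus strand): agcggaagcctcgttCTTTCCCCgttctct
Rps6 (chr4:86857353-86857382, minus strand): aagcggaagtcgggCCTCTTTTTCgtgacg
Rpl26 (chr11:68901551-68901580, plus strand): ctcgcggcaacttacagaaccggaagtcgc

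In the 300 bases around the start, the letters CCGGAAG, the core that ETS family factors bind, were found on either strand in 42.6% of the members with an entry and in 18.5% of the genes tested. AAGATGG, the core of the YY1 site, was found in 16.4% of members and 8.07% of the genes tested. GGGCGG, the GC box, was found in 62.3% and 67.5%, and TATAAA in 11.5% and 9.56%. These motifs may share bases with each other and with the pyrimidine run. A match in these letters describes the sequence and is not a measured site. The mitochondrial ribosomal protein genes also held CCGGAAG in 36.8% and AAGATGG in 19.1%, so of the motifs searched the pyrimidine run differed most between the 2 kinds of ribosomal gene. The 30 members with a run had a median log2 ratio of -0.49 for SAG vs GP and the 31 without one had -0.54, and for PF vs SAG the medians were 0.35 and 0.28.

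Ribosomal protein genes were among the most abundant mRNAs of all 4 libraries. They took 5.14%, 4.88%, 5.83% and 6.04% of the total FPKM of PF, SAG, COR and GP, although they were 0.586% of the genes tested. The median member was at 280, 229, 296 and 321 FPKM in PF, SAG, COR and GP, where the median of all genes tested was between 7.02 and 7.79 FPKM. Among the 100 most abundant rows, members held 11, 10, 13 and 14 places in PF, SAG, COR and GP. The 60S genes together were at 1.32, 1.34, 1.36 and 1.30 times the summed FPKM of the 40S genes in PF, SAG, COR and GP, so the balance between the subunits was similar in the 4 tissues. In bulk samples such as these, fewer cells with a high level and less RNA per cell cannot be told apart.

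Depth and composition bear on these shares. The genes of the sorting antigens CD51 and CD200, *Itgav* and *Cd200*, were at 6.20 and 23.5 FPKM or more in all libraries, while *Enpep*, of the antigen 6C3 that the sort removed, reached 7.05 FPKM in PF. The 5 *Hox* genes listed for the hindlimb summed to 125 FPKM in GP and to at most 0.808 in a suture. The files give no fragment counts. A rough estimate was made from the 1st percentile of FPKM multiplied by transcript length. By it, the PF library held about 45.3% of the fragments of SAG, COR 88.9% and GP 83.6%. This assumes that FPKM is proportional to fragments. It also assumes that the percentile stands for the same number of fragments in every library, which was not tested. Marker genes of other cells differed strongly between libraries. All 6 genes of a choroid plexus list were above 0 in every library and summed to 5346 FPKM in SAG, 483 in PF, 147 in COR and 10.8 in GP, nearly all of it *Ttr*. The 6 chondrocyte genes summed to 3217 FPKM in SAG, 2737 in GP, 115 in PF and 102 in COR. The 6 osteoblast genes summed to 11564 in COR, 8126 in GP, 2711 in PF and 865 in SAG. Most of this sum was *Spp1*, at 8324, 6882, 1649 and 617 FPKM in COR, GP, PF and SAG. For PF vs GP, 3 of the 6 osteoblast genes were higher and 3 lower in PF. *Col1a1*, *Col1a2*, *Col3a1* and *Sparc* were listed at 0 in COR, and *Col1a2* also in GP, while each was above 500 FPKM in SAG. The part of these differences in the members' values was not tested.

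Levels differed more between members than between tissues. By the mean FPKM of the 4 libraries, 6 members lay between 10 and 50, 7 between 50 and 100, 32 between 100 and 300, 20 between 300 and 500, and 17 at 500 or more. The highest was *Rpl32*, of the 60S subunit, at 956, 893, 1078 and 1276 FPKM in PF, SAG, COR and GP. *Rpl41*, which encodes the smallest ribosomal protein, was at 1095, 764, 1083 and 1185 in the same order. Both were lowest in SAG and highest in GP. *Rps14*, a 40S protein near the mRNA channel whose loss is known from a bone marrow disorder, was at 1169, 762, 902 and 1014 FPKM in PF, SAG, COR and GP. *Rpl13* was at 1033, 711, 915 and 894 in PF, SAG, COR and GP. Unlike *Rpl32* and *Rpl41*, these 2 genes were highest in PF as deposited. Their log2 ratios for PF vs GP changed sign under other scalings of the libraries, from -0.08 to 0.21 for *Rpl13* and from -0.01 to 0.21 for *Rps14*.

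At the low end, *Rps15a* was at 19.5, 18.7, 21.4 and 25.8 FPKM in PF, SAG, COR and GP. *Rpl29* was at 20.7, 21.2, 23.9 and 25.4 in the same order. *Rpl22*, an RNA-binding protein of the 60S subunit, was at 35.5, 33.8, 33.4 and 38.9. These 3 genes differed little between tissues but were listed far below the median member.

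**Figure D1:**
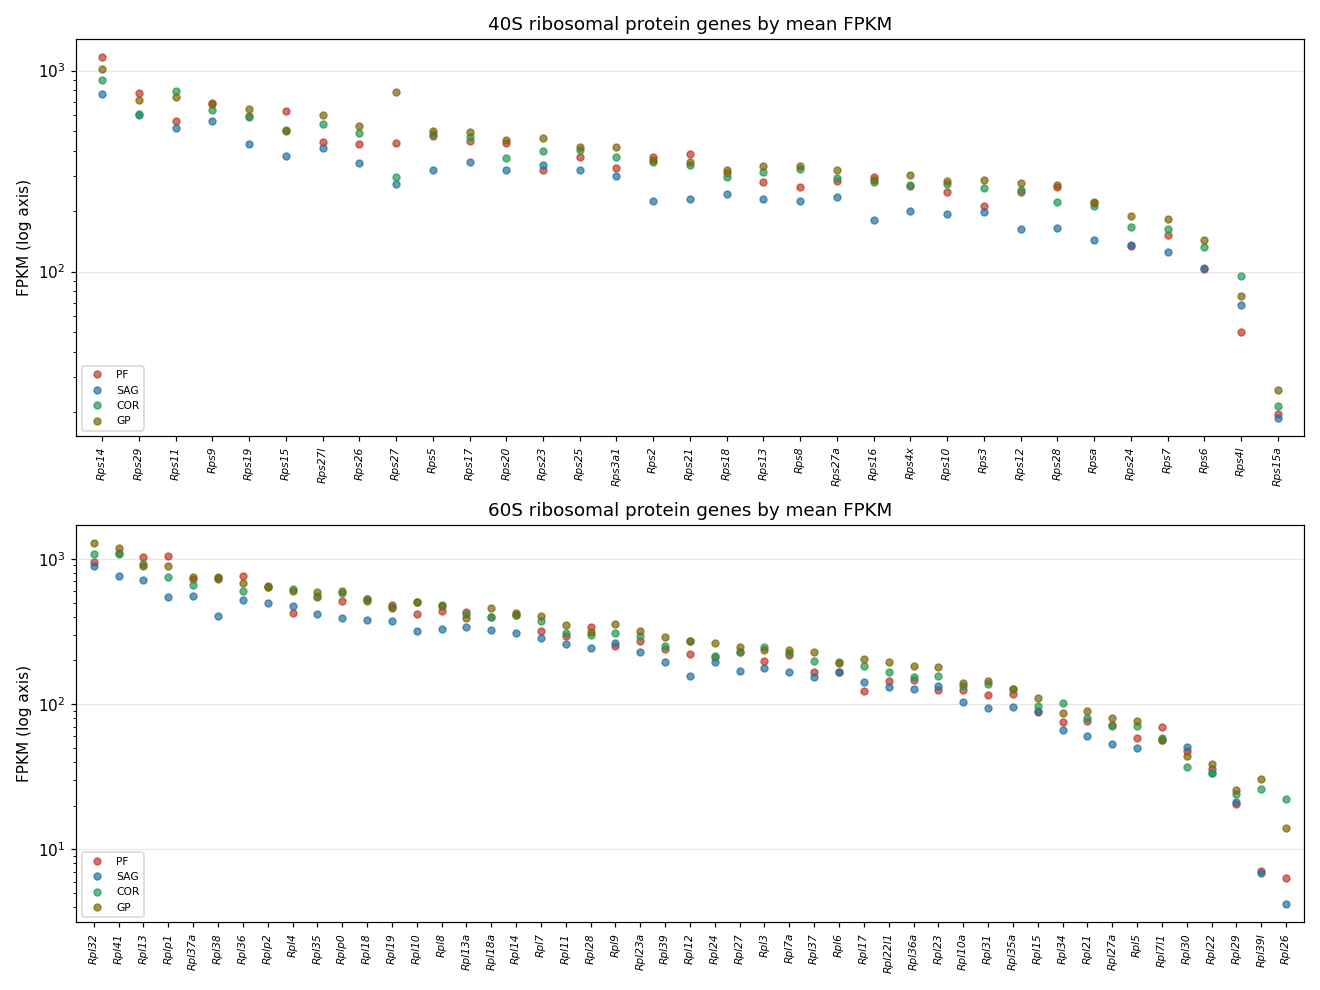
FPKM (log axis) of each of the 82 ribosomal protein genes in the PF, SAG, COR and GP libraries, 1 point per library, with the 40S genes above and the 60S genes below, ordered by mean FPKM. Most genes lie above 100 FPKM with the 4 points close together, and *Rps27*, *Rpl39l* and *Rpl26* have points far apart.

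Close copies in the genome limit how the levels can be read. Ribosomal protein mRNAs are a frequent source of processed pseudogenes, unspliced copies put back into the genome, and reads that match several places are hard to assign. The coding sequence of 81 members was compared with the mm9 genome (*Rpl41* had no coding transcript in the annotation used). A copy elsewhere of at least 95% identity over at least 90% of the coding length was found for 75 members, and 20 had an identical copy. There were 572 copies in all, with a median of 6 per member and the most, 54, for *Rpl21*. The 18 members with 10 or more copies had a median of 181 FPKM, the 27 with 5 to 9 copies 290, the 30 with 1 to 4 copies 394 and the 6 without a copy 335. Across the 81 members the Spearman correlation of copy number and mean FPKM was -0.27, given as a description, since the same 4 libraries underlie every point. *Rpl29*, with 27 copies, *Rpl30*, with 13, and *Rpl21*, at a mean of 76.7 FPKM, were low, but *Rpl7a*, with 31 copies, was at a mean of 211 FPKM and *Rps12*, with 22, at 236. *Rps15a* and *Rpl26* had 6 copies each, no more than the median. How the authors' counting treated reads that match several places is not given in the sources used here, so the level of a member with close copies is uncertain, and levels of different members are compared with that limit. Copy number was nearly unrelated to the ratios between tissues, with correlations from -0.13 for COR vs GP to -0.02 for PF vs SAG.

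**Figure D2:**
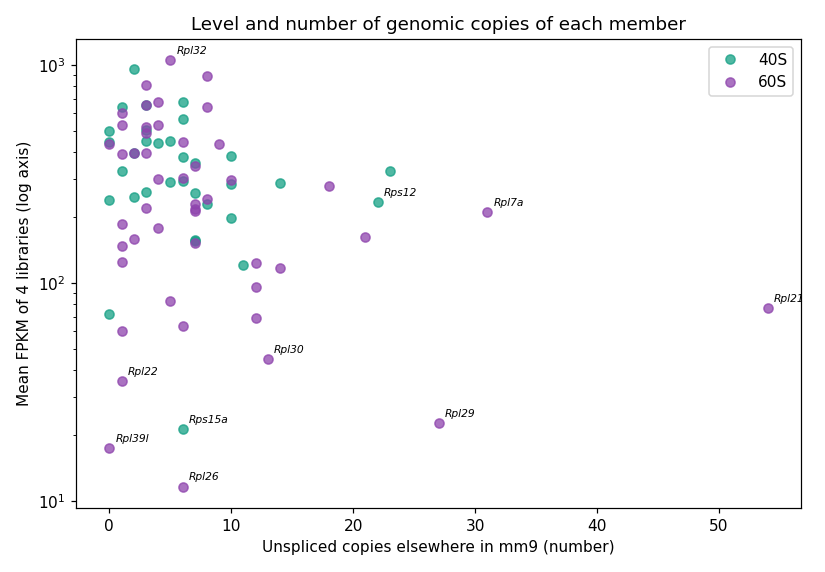
Mean FPKM of the 4 libraries (log axis) against the number of unspliced copies elsewhere in mm9 for 81 ribosomal protein genes, 1 point per gene, colored by subunit. Members with 10 or more copies lie at a median of 181 FPKM, while *Rps15a*, *Rpl26*, *Rpl22* and *Rpl39l* are low with 6 copies or fewer.

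The growth plate was the highest library for most members, while the order of the other libraries varied. GP was the highest of the 4 libraries for 55 of 82 members, 24 of the 40S and 31 of the 60S, and for 16.4% of the genes tested. PF was highest for 15 members and for 35.2% of the genes tested, COR for 11 members and 19.9% of the genes tested, and SAG for 1 member, *Rpl30*. SAG was lowest for 68 members and for 25.2% of the genes tested, and PF for 11 members and 34.3%. Both GP highest and SAG lowest held for 46 members and for 4.61% of the genes tested. The full order with SAG lowest, then PF, COR and GP held for 35 members and for 2.43% of the genes tested. The position of GP was the more stable of these counts, being highest for 61 members with median-ratio scaling, 48 with quantile normalization and 43 with equal totals. The low end depended on the scaling, since SAG was lowest for 63, 28 and 40 members and PF for 15, 42 and 38 under the same 3 scalings. Of the genes tested, 21.4%, 27.7% and 16.3% were lowest in SAG and 36.2%, 34.8% and 41.0% in PF. The 28 members lowest in SAG after quantile normalization and the 38 lowest in PF with equal totals were near these shares. Which of PF and SAG had the least ribosomal protein mRNA was therefore not settled by these values.

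Ratios between libraries were computed as log2(FPKM + 1), and the added 1 makes differences of lowly expressed genes look smaller than they are. All ratios share the 4 libraries, so the 6 pairs are not independent. For SAG vs GP, the median member was at -0.50, which is 0.709-fold, and the median of all genes tested was 0.01. Of the 82 members, 2 were higher and 80 lower in SAG, where 51.1% of the genes tested were higher in SAG. The 1852 other genes with a mean FPKM of 50 or more had a median of -0.17, so abundant genes as a class were also lower in SAG. The median remained negative under every scaling tried, from -0.50 to -0.17, the latter after a correction for level. At least 2-fold lower were 3 members, *Rpl39l*, *Rpl26* and *Rps27*, with 16.7% of the genes tested past 2-fold in either direction. *Rpl39l* was the 1 member past 3-fold, where 8.00% of the genes tested passed. The 40S median was -0.54 and the 60S median -0.48.

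For COR vs GP the members were nearly level, with a median of -0.11, 16 higher and 66 lower in COR. Of the genes tested, 49.7% were higher in COR. The only member past 2-fold was *Rps27*, where 8.68% of the genes tested passed, and no member passed 3-fold, where 3.84% did. For PF vs GP the median was -0.19, with 17 members higher and 65 lower in PF against 49.5% of the genes tested higher in PF. *Rpl39l* and *Rpl26* passed 2-fold in this pair, where 27.3% of the genes tested passed, and *Rpl39l* passed 3-fold, where 11.2% did. Both medians kept their sign under every scaling, from -0.16 to -0.04 for COR vs GP and from -0.29 to -0.19 for PF vs GP. The abundant other genes had medians of 0.01 and 0.10 for these pairs.

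Among the sutures, PF vs SAG compares the fusing midline suture with a patent one. The median member was at 0.30, or 1.23-fold, with 70 higher and 12 lower in PF, where 49.9% of the genes tested were higher. The abundant other genes had nearly the same median, 0.33. The direction of the members' median did not hold, being -0.03 after quantile normalization and -0.15 after a correction for level, and 0.00 with equal totals, a scaling that moved the median of all genes by -0.24. No member passed 2-fold or 3-fold in this pair, where 33.5% and 15.1% of the genes tested did.

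For PF vs COR the median was -0.07, with 28 members higher and 54 lower in PF against 50.4% of the genes tested higher in PF. *Rpl39l* and *Rpl26* were at least 2-fold and 3-fold lower in PF, where 27.0% and 10.7% of the genes tested passed in either direction. For COR vs SAG the median was 0.39, or 1.31-fold, with 80 members higher and 2 lower in COR against 46.9% of the genes tested higher in COR. The same 2 genes, *Rpl26* and *Rpl39l*, passed 2-fold and 3-fold, where 18.2% and 8.41% of the genes tested did. The median for COR vs SAG remained positive under every scaling but was 0.05 after a correction for level, and the abundant other genes had a median of 0.17.

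Within each pair the members lay close together. The interquartile range of their log2 ratios was 0.15 for COR vs GP, 0.17 for SAG vs GP, 0.21 for COR vs SAG, 0.29 for PF vs GP and for PF vs COR, and 0.33 for PF vs SAG. Over the abundant other genes it was between 0.39, for COR vs GP, and 0.89, for PF vs SAG. Between 58 members, for PF vs SAG, and 78 members, for COR vs GP, were within 1.2-fold of the members' own median. Of all genes tested, 21.6% and 52.8% were within the same distance of theirs. The narrow range describes these libraries, and the part of counting error in it was not tested.

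**Figure D3:**
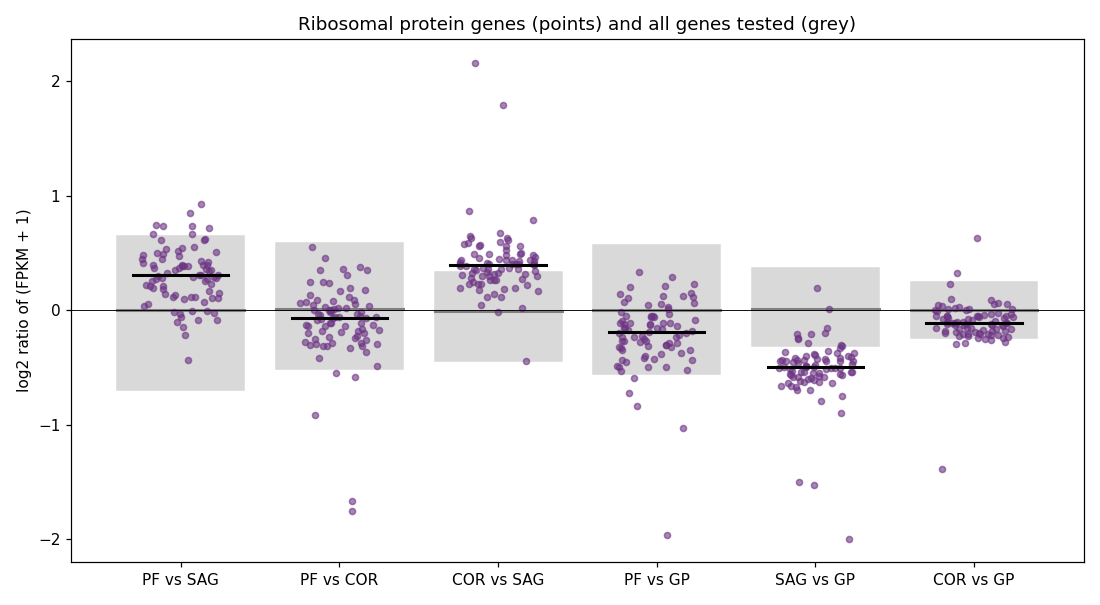
Log2 ratio of (FPKM + 1) for the 6 pairs of libraries, with 1 point per ribosomal protein gene, a black line at their median, and a grey box and grey line for the interquartile range and median of all 13998 genes tested. The members sit in a narrow band at -0.50 for SAG vs GP, and the bands for PF vs SAG and COR vs SAG lie above 0 as deposited, the first of which turned negative after quantile normalization or a correction for level.

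Within that band, the ratios of most pairs went with the GC content of the longest annotated coding transcript. Across 81 members, this GC content ran from 41.3% to 62.4%. Its Spearman correlation with the log2 ratio was 0.54 for PF vs GP, 0.38 for PF vs COR and 0.50 for PF vs SAG, and among the pairs without PF it was 0.43 for COR vs GP, 0.23 for COR vs SAG and 0.09 for SAG vs GP. The 27 members of lowest GC content had a median of 0.17 for PF vs SAG, the middle 27 had 0.30 and the 27 of highest GC content had 0.42. For SAG vs GP the 3 medians were -0.52, -0.48 and -0.43. Across all 12492 genes with a coding transcript the correlation for PF vs SAG was 0.27. These points share their libraries, and the correlations are descriptions. The longest transcript may not be the form expressed here, as for *Rps15a*, where it has 5130 bases against a median of 860 over members. After a loess correction for GC content fitted on all genes, the members' median for PF vs SAG was 0.29 and for PF vs GP -0.21.

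**Figure D4:**
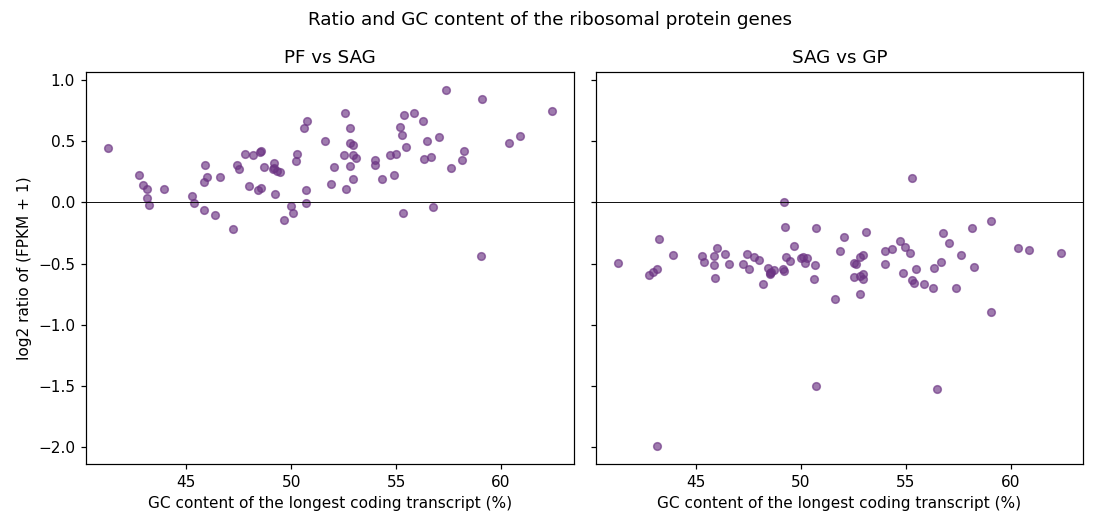
Log2 ratio of (FPKM + 1) against GC content in percent for 81 ribosomal protein genes, for PF vs SAG and SAG vs GP. The points climb with GC content for PF vs SAG, with a Spearman correlation of 0.50, and show little slope for SAG vs GP, where it was 0.09.

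The stalk of the 60S subunit, which recruits the elongation factors, is built from *Rplp0*, *Rplp1* and *Rplp2*. *Rplp1* was at 1038, 547, 755 and 888 FPKM in PF, SAG, COR and GP, and its log2 ratio of 0.92 for PF vs SAG was the highest of any member. *Rplp2*, its partner in the stalk dimer, was at 649, 494, 635 and 635 in the same order, with 0.39. *Rplp0*, which anchors the dimers, was at 512, 390, 582 and 602, with 0.39. PF was thus highest for *Rplp1* and, by a small margin, for *Rplp2*, but not for *Rplp0*. The ratio of *Rplp1* for PF vs SAG remained positive under every scaling, from 0.29 to 0.92. Its ratio for PF vs GP changed sign, from -0.08 to 0.22.

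*Rpl38*, on mm9 chromosome 11 from 114529838 to 114533645, is needed for translation of a subset of Hox mRNAs and for patterning of the axial skeleton. It was at 724, 403, 734 and 752 FPKM in PF, SAG, COR and GP. PF, COR and GP were nearly equal, and SAG stood alone below them. Its log2 ratios were 0.84 for PF vs SAG, 0.86 for COR vs SAG and -0.90 for SAG vs GP, beyond the members' medians of 0.30, 0.39 and -0.50, and each kept its sign under every scaling. *Rpl24*, mutated in mice with a kinked tail and white belly spot, was at 210, 194, 214 and 262 FPKM in PF, SAG, COR and GP, and it was highest in GP.

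The 40S genes *Rps15*, *Rps2* and *Rps21* came next for PF vs SAG, at 0.75, 0.74 and 0.73. *Rps15* was at 630, 375, 508 and 500 FPKM in PF, SAG, COR and GP. *Rps2*, a protein at the mRNA entry of the 40S subunit, was at 373, 224, 351 and 357. *Rps21* was at 383, 230, 341 and 351. As deposited, all 3 were highest in PF and lowest in SAG, and for PF vs SAG each remained positive under every scaling. For PF vs GP, *Rps15* ran from -0.06 to 0.33 and *Rps2* from -0.18 to 0.06 over the scalings, so their place as highest in PF did not hold. *Rps21* ran from 0.02 to 0.12 for that pair. *Rps15* had the highest GC content of any member, 62.4%. At the other end of this pair, *Rps4l* was at -0.44, *Rpl17* at -0.22, *Rpl4* at -0.14, *Rpl23* at -0.10 and *Rpl30* at -0.09, and of these 5 only *Rpl23* changed sign under a scaling. *Rpl17* was at 122, 143, 184 and 203 FPKM in PF, SAG, COR and GP. *Rpl4*, which lines the exit tunnel, was at 425, 469, 622 and 601. Both were lowest in PF.

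*Rpl30*, a 60S protein that in yeast represses its own splicing, ran against the other members. It was at 47.4, 50.5, 36.8 and 43.9 FPKM in PF, SAG, COR and GP, and was the 1 member highest in SAG and 1 of 2 lowest in COR. Its log2 ratio was -0.45 for COR vs SAG, where the members' median was 0.39, and 0.20 for SAG vs GP. Both kept their sign under every scaling. Its 13 close copies in the genome make the level uncertain. *Rpl12* and *Rpl10* were farthest up for COR vs SAG after *Rpl26*, *Rpl39l* and *Rpl38*, at 0.79 and 0.68. *Rpl12*, at the base of the stalk, was at 223, 156, 270 and 271 FPKM in PF, SAG, COR and GP. *Rpl10*, which joins the 60S subunit last, was at 414, 316, 506 and 502.

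The genes chosen here as known from blood or stress pathways were mostly highest in GP, as were the members as a whole. *Rpl5* and *Rpl11* form a complex with 5S rRNA that binds Mdm2 and stabilizes p53. *Rpl5* was at 58.5, 50.01, 70.3 and 76.0 FPKM in PF, SAG, COR and GP, and *Rpl11* at 295, 258, 309 and 348. *Rps19* was at 596, 430, 587 and 644 FPKM, and *Rps7* at 152, 125, 164 and 183. *Rpl5*, *Rpl11*, *Rps19* and *Rps7* were all lowest in SAG and highest in GP. *Rps6*, the protein that S6 kinases phosphorylate downstream of mTORC1, was at 103, 105, 133 and 144 FPKM in PF, SAG, COR and GP. *Rps3*, at the mRNA entry, was at 212, 197, 261 and 286. *Rpsa*, also known as a laminin receptor, was at 220, 144, 212 and 223. Here *Rps6* differed from *Rpsa* in that PF and SAG were nearly equal for *Rps6*, while for *Rpsa* SAG alone was low. Of the 14 members listed for skeletal or blood phenotypes, 12 were lowest in SAG and 13 were highest in GP, compared with 68 and 55 of all 82 members. That list was chosen by hand and is not complete. *Rps14*, whose loss is known from a bone marrow disorder, was outside it and was highest in PF as deposited, at 1169 FPKM with 1014 in GP.

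*Rpl26*, on mm9 chromosome 11 from 68715085 to 68720491, had the widest range among the members, 5.30-fold between its highest and lowest library, followed by *Rpl39l* at 4.42-fold. Its protein binds near the exit tunnel and is known to bind p53 mRNA. From 4.18 FPKM in SAG and 6.33 in PF it reached 13.9 in GP and 22.2 in COR. Its log2 ratio was 2.16 for COR vs SAG, -1.66 for PF vs COR, -1.53 for SAG vs GP and 0.63 for COR vs GP, and none of these changed sign under any scaling. These are low values for a protein of every ribosome, and the gene has 6 close copies, the best at 99.5% identity.

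Paralogs were compared with the genes they derive from. *Rpl39l* is an autosomal copy of the X-linked *Rpl39*, known from male germ cells. It was at 7.05, 6.86, 26.1 and 30.3 FPKM in PF, SAG, COR and GP, while *Rpl39* was at 239, 195, 250 and 287. *Rpl39l* was thus 0.0295, 0.0351, 0.105 and 0.105 times the level of *Rpl39* in PF, SAG, COR and GP, so that PF and SAG were low and COR and GP high. Its log2 ratios were -1.96 for PF vs GP, -1.99 for SAG vs GP, 1.79 for COR vs SAG and -1.75 for PF vs COR. No copy of its coding sequence met the criteria above, and its coding sequence differed from that of *Rpl39* at 23 of 156 bases, so reads of the 2 genes can be told apart over most of their length. The first 120 coding bases of both, from mm9 transcripts, are printed with the differing bases in capitals to show how often they differ.
Rpl39: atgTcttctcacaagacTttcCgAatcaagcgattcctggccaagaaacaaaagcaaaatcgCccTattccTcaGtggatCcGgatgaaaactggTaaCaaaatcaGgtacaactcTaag
Rpl39l: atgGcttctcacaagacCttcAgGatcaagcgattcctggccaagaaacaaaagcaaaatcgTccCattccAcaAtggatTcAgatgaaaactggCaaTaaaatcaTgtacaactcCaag

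*Rps27* lies on mm9 chromosome 3 from 90016593 to 90017573. It was listed at 435, 274, 297 and 778 FPKM in PF, SAG, COR and GP. All 3 sutures were below GP, with log2 ratios of -0.84, -1.50 and -1.39. The gene has a row with a near relative, *Rps27rt*, an unspliced retrogene on mm9 chromosome 9 from 114891515 to 114891858 on the minus strand, whose 255 coding bases are all identical to those of *Rps27*. *Rps27rt* was at 270, 310, 278 and 4.48 FPKM in PF, SAG, COR and GP, the reverse of the order of *Rps27*. It made up 38.3%, 53.1%, 48.4% and 0.572% of the sum of both rows in PF, SAG, COR and GP. The sum was 704, 584, 574 and 783 FPKM in PF, SAG, COR and GP, with log2 ratios against GP of -0.15, -0.42 and -0.45. Summed, *Rps27* no longer passed 2-fold in any pair, and its SAG vs GP ratio lay near the members' median of -0.50. Reads from the coding part of these 2 rows cannot be told apart by sequence, so the split between them, and the values of *Rps27* alone, are uncertain. Their first 120 coding bases are the same, as both lines show.
Rps27: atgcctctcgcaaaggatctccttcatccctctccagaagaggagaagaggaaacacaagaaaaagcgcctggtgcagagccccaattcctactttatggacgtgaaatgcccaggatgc
Rps27rt: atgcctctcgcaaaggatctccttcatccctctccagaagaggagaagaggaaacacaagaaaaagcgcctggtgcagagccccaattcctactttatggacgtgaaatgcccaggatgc

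*Rps27l*, a paralog induced by p53, differs from *Rps27* at 61 of 255 coding bases, with no identical run longer than 11 bases, and has no close copy. Its first 120 coding bases follow, with capitals at the bases that differ from *Rps27*.
Rps27l: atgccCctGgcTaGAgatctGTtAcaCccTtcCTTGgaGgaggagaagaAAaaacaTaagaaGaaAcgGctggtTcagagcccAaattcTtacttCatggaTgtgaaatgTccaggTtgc
It was at 442, 410, 540 and 600 FPKM in PF, SAG, COR and GP. Against *Rps27* alone its ratio was 1.02, 1.496, 1.82 and 0.771 in PF, SAG, COR and GP, and against the sum of *Rps27* and *Rps27rt* it was 0.628, 0.702, 0.940 and 0.766. The low ratio in GP was therefore present with *Rps27* alone and absent with the sum.

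**Figure D5:**
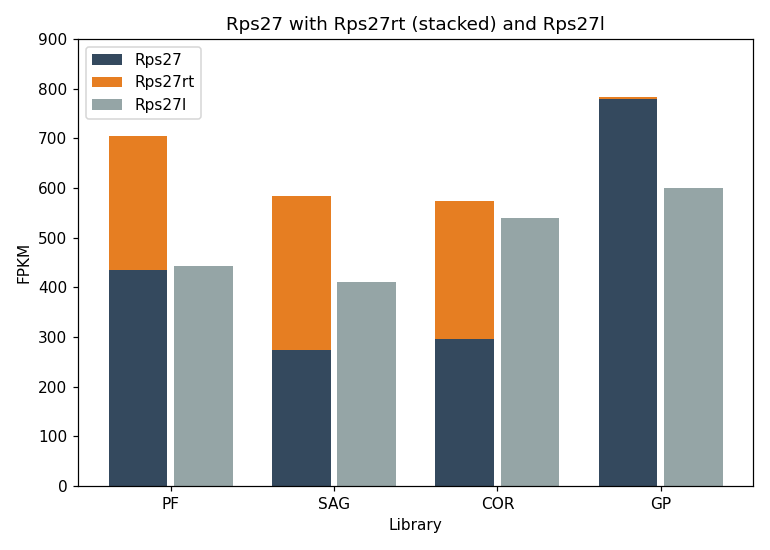
FPKM of *Rps27* and *Rps27rt*, stacked, and of *Rps27l* beside them, in the PF, SAG, COR and GP libraries, 1 bar per library. *Rps27rt* is 38.3% to 53.1% of the stack in the 3 sutures and 0.572% in GP, while the whole stack runs from 574 to 783 FPKM.

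Of the other paralogs, *Rpl22l1* exceeded its parent in every library. It was at 144, 131, 166 and 194 FPKM in PF, SAG, COR and GP, which is 4.07, 3.87, 4.95 and 4.99 times *Rpl22*. *Rpl7l1* was at 69.1, 56.5, 58.5 and 56.3 FPKM, and its ratio to *Rpl7* was 0.218, 0.1998, 0.156 and 0.139 in PF, SAG, COR and GP. It was the member farthest up when the mean of the sutures was set against GP, at 0.12. *Rps4l*, an autosomal relative of *Rps4x*, was at 49.8, 67.9, 95.1 and 75.6 FPKM in PF, SAG, COR and GP, and *Rps4x* was at 268, 201, 269 and 302. The order of *Rps4l*, with PF lowest and COR highest, differed from that of *Rps4x*, with SAG lowest and GP highest.

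When the mean of the 3 sutures was set against GP, *Rpl39l* was farthest down at -1.39, followed by *Rps27* at -1.24, *Rpl26* at -0.64, *Rpl17* at -0.46 and *Rpl37* at -0.41. *Rpl37* was at 167, 154, 198 and 229 FPKM in PF, SAG, COR and GP. Only 3 members were above 0 in this contrast, namely *Rpl7l1* at 0.12, *Rpl30* at 0.02 and *Rpl13a* at 0.01. *Rpl13a*, which can leave the ribosome to silence inflammatory mRNAs, was at 430, 337, 416 and 389 FPKM in PF, SAG, COR and GP.

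Genes of ribosomal proteins outside the symbol rule were measured too, and 3 are given here. *Fau*, a fusion of a ubiquitin-like protein with a 40S protein, was at 305, 300.5, 318 and 331 FPKM in PF, SAG, COR and GP. *Gnb2l1*, now called *Rack1*, a scaffold on the 40S subunit, was at 279, 205, 329 and 317, and *Rpl36al* was at 168, 109, 210 and 189. These 3 genes were lowest in SAG, and none of them was 2-fold apart in any pair.

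Other genes of the translation apparatus were measured for comparison. Of 77 mitochondrial ribosomal protein genes, 36 were highest in PF and 19 in GP, where 35.2% and 16.4% of the genes tested were, and 40 were lowest in SAG, where 25.2% were. Their median was 0.23 for PF vs SAG, with 55 higher in PF, and -0.17 for SAG vs GP, where the cytosolic members were at 0.30 and -0.50. *Mrps22* was at 1.48, 17.1, 15.8 and 18.9 FPKM in PF, SAG, COR and GP, and *Mrps6* was at 257, 211, 42.8 and 78.7. These 2 genes were the farthest down and up of their list when the suture mean was set against GP. Of 50 ribosome biogenesis genes, which build the subunits in the nucleolus, 24 were highest in COR and 25 lowest in PF, where 19.9% and 34.3% of the genes tested were. Their median was -0.61 for PF vs COR and -0.46 for PF vs GP, where the cytosolic members were at -0.07 and -0.19. *Gnl3*, the nucleostemin gene, was at 21.8, 24.3, 42.5 and 49.1 FPKM in PF, SAG, COR and GP. *Wdr12*, of the Pes1 complex that matures the 60S subunit, was at 1.63, 10.03, 9.95 and 10.4. *Polr1a* and *Polr1b*, subunits of RNA polymerase I, were instead highest in PF, at 5.92 and 7.83 FPKM, and at 2.80 and 3.02 in GP.

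The 25 other TOP RNAs had medians of -0.43 for PF vs GP, -0.22 for SAG vs GP and -0.10 for PF vs SAG. Translation factors were among them, but so were the noncoding RNAs *Gas5*, *Snhg1* and *Snhg8*, at -1.25, -1.55 and -1.70 for PF vs GP. In that pair 6 of the 25 were higher and 19 lower in PF. *Eef2*, the translocation factor, was at 265, 135, 224 and 179 FPKM in PF, SAG, COR and GP. *Npm1*, the nucleolar chaperone, was at 114, 153, 164 and 229, and *Pabpc1*, the poly(A)-binding protein, at 27.2, 28.8, 47.2 and 52.6. *Eef2* was highest in PF and the other 2 lowest there. Among 24 regulators of TOP mRNAs and of ribosome production, *Myc* was at 22.7, 28.2, 51.9 and 42.0 FPKM in PF, SAG, COR and GP. *Mycn* was at 5.80, 10.8, 9.10 and 3.50, and *Larp1*, which binds the TOP tract, at 16.7, 12.9, 20.2 and 14.3. *Myc* was lower in PF and SAG than in COR and GP. For reference, *Gapdh* was at 281, 407, 335 and 389 FPKM and *Actb* at 1439, 866, 1641 and 1509, so that these 2 genes gave opposite directions for PF vs SAG.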

How the data were processed

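RNA-seq of CD51+;CD200+ cells was analyzed in 4 libraries, 1 per tissue. Reads were aligned by the authors with STAR 2.5.1b to the mm9 build, and the deposited FPKM per gene symbol came from Cuffdiff (Cufflinks 2.2.1) with the iGenomes gene model. Library normalization, depth and the handling of reads with several matches are not given in the sources used here, so no counting interval is given. Members and lists were chosen with earlier results of these data known.

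Ratios were taken as log2(FPKM + 1) over genes that reached an FPKM of 1 in any library. With 1 library per tissue no test was made. Named genes were the 5 highest and lowest members, the 5 farthest in each direction for PF vs SAG, PF vs COR, COR vs SAG and the suture mean vs GP, paralogs, members of known roles, and the 3 farthest of each other list, of which the text gives a part. *Rps12*, *Rpl21* and *Rpl7a* were added once their values were known. Gene positions, transcripts and copies were from GENCODE M1 on mm9, with BLAST 2.17.0, and start windows and promoters from RefSeq (GRCm38.p6). Alternatives were a pseudocount of 0.1, median-ratio, quantile and equal-total scaling, loess on level or GC content (span 0.3), other filters and other totals. Added after the data were seen were members with at most 4 copies, *Rps27* summed with *Rps27rt*, and totals without rows listed at 0. Python 3.11.15, numpy 2.4.6, pandas 2.3.3, statsmodels 0.14.6 and matplotlib 3.10.9 were used. On simulated data, 195 of 200 genes changed 5-fold among 8330 were recovered past 3-fold for PF vs SAG, with 0 false calls. The simulated libraries shared 1 level per gene with small added noise. The simulation therefore checked the calculation only and gives no error rate for these single libraries.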

Additional observations from a re-analysis of the deposited data

How the results depend on the processing

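Of 186 medians recomputed, 162 stayed within 0.2 of their value, 18 moved and 6 changed sign. For PF vs SAG the median was -0.026 (40S -0.043, 60S -0.022) after quantile normalization, -0.15 (40S -0.13, 60S -0.16) after loess on level, and 0.0047 (40S 0.039, 60S 0.0041) with equal totals. For COR vs SAG it was 0.15 (40S 0.16, 60S 0.14) after quantile normalization and 0.052 (40S 0.11, 60S 0.038) after loess on level. For SAG vs GP it was -0.20 (40S -0.21, 60S -0.19), -0.29 (40S -0.33, 60S -0.27) with equal totals and -0.17 (40S -0.21, 60S -0.14) after loess on level. The cause was not tested. Of 264 counts past a fold, 238 stayed within 1.5 times. Members 3-fold lower for SAG vs GP were 2 with a pseudocount of 0.1, quantile normalization or loess on level, and 0 without paralogs. Members 2-fold lower for PF vs GP were 1 after quantile normalization or loess on level. With a minimum FPKM of 5 for every library, without paralogs, or with at most 4 copies, the counts 2-fold and 3-fold lower for PF vs COR and higher for COR vs SAG were 1 each, as was that 2-fold lower for PF vs GP, since each choice removes *Rpl26* or *Rpl39l*. Without paralogs, 0 were 3-fold lower for PF vs GP. After loess on GC content, 1 was 3-fold lower for PF vs COR. With at most 4 copies, 1 was 2-fold lower for SAG vs GP and 0 for COR vs GP, and the latter was also 0 with *Rps27* and *Rps27rt* summed, where *Rps27l* to *Rps27* was 0.628 in PF, 0.702 in SAG and 0.940 in COR. All 16 recomputed shares of total FPKM stayed close. No paired analysis was possible because there was a single library of each tissue, and for the same reason no library could be left out.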

Other observations

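Of 7 rows named as ribosomal protein pseudogenes, *Rpl34-ps1* was the highest, at 120, 84.7, 113 and 137 FPKM in PF, SAG, COR and GP. *Rpl34* itself was at 75.5, 66.1, 101 and 86.6 FPKM, so the pseudogene row exceeded the parent in every library. The reads of both rows share sequence, and how they were assigned was not tested. *Rplp2-ps1* and *Rps19-ps3* were listed at 0 in PF and between 0.876 and 2.86 FPKM elsewhere.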
